A study of Mus musculus with 38 samples.

Results

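The 20 arrays described here compare the spleens of old and adolescent tumor-bearing mice that had both been given protons. They are the 10 OP arrays (old, protons) and the 10 AP arrays (adolescent, protons) among the 38 arrays of the series, chosen by the age and dose in their labels. All mice were C57BL/6 males, and the adolescent and old mice were 68 and 736 days old. By the study's methods the adolescent mice came from Jackson Laboratory and the old mice from the National Institute of Aging. Supplier therefore cannot be told apart from age, with or without protons. The OP and AP mice received whole-body protons in 3 fractions of 0.5 Gy. All mice, irradiated or not, carried subcutaneous tumors grown from injected Lewis lung carcinoma (LLC) cells, a line derived from a lung tumor of the same strain. By the study's methods the tumor cells went in after the first fraction, so every spleen came from a host that bore a tumor. Mice were killed at a set tumor size, and the paper reports slower tumor growth in OP than in AP. The time from irradiation to harvest may thus differ between OP and AP and cannot be told apart from age here. The paper also reports a lower spleen mass in OP than in the other groups. Tumor-free spleens of these ages were not analysed here. The remaining 18 arrays are 9 of unirradiated adolescent (A) and 9 of unirradiated old (O) hosts. They are used to set the age difference without protons beside the one with protons, and they entered the normalization of all 38 arrays.

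The spleen filters blood and houses B and T lymphocytes in its white pulp, while its red pulp holds macrophages that take up aged red cells. In mice the red pulp is also a site of blood formation, where erythroid precursors divide, load heme and iron and turn into red cells, and this activity is known to grow in anemia and in tumor-bearing hosts. Dividing cells copy their DNA through a licensing step in which the MCM helicase is loaded on origins, and they then pass through mitosis under the cyclins and their kinases.

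RNA of whole spleens was measured on bead arrays, with 1 array per spleen. The deposited signals were corrected for background, brought to common quantiles across arrays and read as log2 values, so that a difference of 1 is a 2-fold change. A gene was tested when a probe stood above background on at least 10 of the 20 arrays, and 14975 genes qualified. The brightest signals of the OP arrays ranged from 27474 to 31757 and those of the AP arrays from 27311 to 32700 and the ranges overlapped. As a check of the spleen label, 21 of 22 B cell, 18 of 19 T cell receptor and 19 of 20 macrophage genes on the array were tested. This compares with 2 of 19 pancreatic and 4 of 8 fat genes. Of all 30869 gene symbols on the array 14975 were tested, so the fat list lay near the share of all genes.

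Several arrays stood apart from their group, and they are numbered here by their order in the deposited table. OP array 7 had a background peak of 139.1 signal units, against 97.7 to 108 in the other OP arrays, together with the lowest erythroid and the highest B cell signal. OP array 5 had a red cell membrane signal within the AP range, a macrophage signal of 60875 against at most 37658 elsewhere in OP, and the lowest B cell signal of OP. OP array 8 had a T cell receptor signal of 28375 against at most 13218 in the other OP arrays. AP array 8 had the highest heme synthesis signal of AP and the lowest naive T cell signal. These list signals are sums of the normalized linear signals of a list's tested genes.

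By limma with Benjamini-Hochberg adjustment, 6703 of 14975 genes differed between OP and AP at an adjusted p under 0.05 (44.8%). Of these 3238 were upregulated in OP (21.6%) and 3465 were downregulated (23.1%). The counts of called list members below are to be read beside these shares of all genes. A change of at least 2-fold was reached by 303 upregulated (2.02%) and 207 downregulated genes (1.38%). All 10 OP arrays lay above all 10 AP arrays for 239 genes (1.6%) and below them for 228 (1.52%), 467 genes in all (3.12%). Without OP arrays 5, 7 and 8 and AP array 8, a set chosen after seeing the data, 6217 genes were called and 5804 of them were among the 6703. When array medians were aligned in place of quantile normalization, the median of all genes moved from -0.01 to -0.16 and the calls became 1180 upregulated and 4613 downregulated. The share of upregulated calls then was 20.4% in place of 48.3%, so the balance of the directions depends on this step, and small increases are read below against that shift. The arrays hold whole spleens, in which fewer cells of a type and less RNA per cell cannot be told apart.

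**Figure D1:**
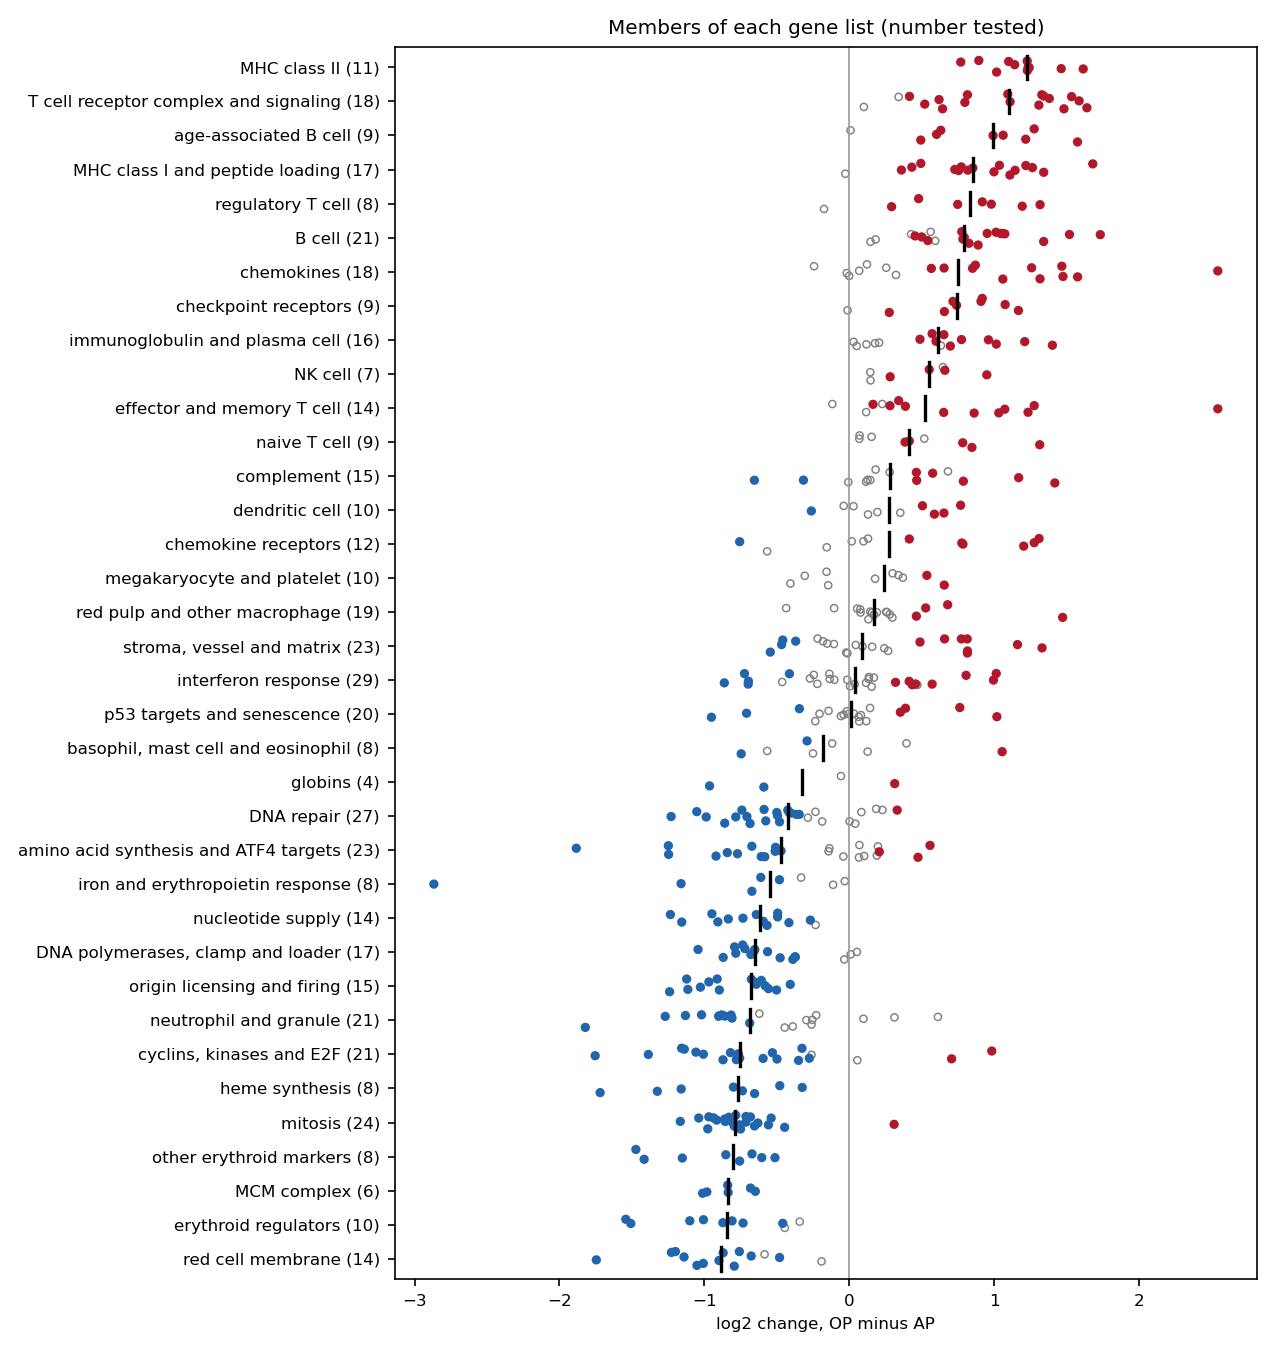
Log2 change (OP minus AP) of every tested member of each gene list, with the number tested in parentheses. Filled points passed the test at an adjusted p under 0.05 (red higher, blue lower in OP), open points did not, and black bars are list medians. Red cell membrane genes have the lowest median (-0.88) and MHC class II genes the highest (1.23).

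The erythroid genes were lower in the old spleens. Across 52 tested genes of the 6 erythroid lists, 43 fell and 1 rose, with a median log2 change of -0.78 beside -0.01 over all genes. None of the 52 separated the groups completely, and OP array 5 had the highest OP signal in every erythroid list except the globins.

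The largest decrease of all genes was that of Fam132b, now named Erfe, which encodes erythroferrone, the hormone that erythroblasts release under erythropoietin to lower hepcidin and free iron. For this and later genes the lowest, median and highest array of each group are given in log2 units, and the arrays of the groups overlapped for each gene unless stated otherwise. Fam132b read 8.68, 9.81 and 11.71 in AP and 5.97, 6.78 and 9.04 in OP. The groups overlapped only in OP array 5, which passed AP array 3. The change was -2.87 (SE 0.35, adjusted p = 7.25e-06, n = 10 and 10, limma), or 7.29-fold lower in OP. The highest AP value belonged to AP array 8, and without it the change was -2.66. Plek2, which acts in the late maturation of erythroblasts, fell by 2.07 (SE 0.32) and Cish, a target of cytokine signaling through STAT5, fell by 1.74 (SE 0.25). Tfrc, the transferrin receptor that brings iron into erythroblasts, read 13.19, 13.92 and 14.71 in AP and 11.31, 12.88 and 13.70 in OP and fell by 1.16 (SE 0.24, adjusted p = 0.000556, limma). Slc25a37, the mitochondrial iron importer, fell by 0.61 (SE 0.14). In all 5 of the 8 tested genes of the iron and erythropoietin list fell and 3 did not pass the test.

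All 8 tested heme synthesis genes fell, with a median of -0.77. Cpox, a late enzyme of the pathway, read 6.23, 8.05 and 9.14 in AP and 4.46, 6.49 and 7.98 in OP, a change of -1.72 (SE 0.41, adjusted p = 0.00194, limma). Fech, which places iron in the ring to make heme, fell by 1.32 (SE 0.39) and Uros by 1.16 (SE 0.24). The old spleens were lower on average at each of these steps, but the arrays of the groups overlapped.

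Of 14 red cell membrane genes 12 fell. Rhag, the Rh-associated ammonium channel of the red cell surface, read 9.84, 10.63 and 11.79 in AP and 6.23, 9.20 and 10.77 in OP, with OP array 7 the lowest and OP array 5 the highest of OP, a change of -1.75 (SE 0.40, adjusted p = 0.00147, limma). Ermap, an erythroid membrane protein, fell by 1.23 (SE 0.25). Slc4a1, the band 3 anion exchanger, was not called at -0.19 (SE 0.12, adjusted p = 0.206, limma), and its signals of 14.09, 14.74 and 14.84 in AP were near the top of the scale. Of the 10 transcription factors and other regulators of the lineage 8 fell. Tal1, a factor that specifies blood and erythroid fate, fell by 1.51 (SE 0.25), Hemgn by 1.54 (SE 0.35), Klf1 by 1.01 (SE 0.18) and Epor, the erythropoietin receptor, by 0.81 (SE 0.18). Among other markers Xpo7, a nuclear export receptor of maturing erythroblasts, fell by 1.47 (SE 0.29) and Car2, carbonic anhydrase 2, by 1.41 (SE 0.37), and all 8 of that list fell.

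The globins did not move as one. Hba-a1 read 14.43, 14.64 and 14.80 in AP and 14.41, 14.62 and 14.74 in OP and was not called (change -0.056, SE 0.063, adjusted p = 0.492, limma). Hbb-b1 rose by 0.31 (SE 0.10), yet 7 of its 11 detected probes were higher in OP and it was not called with aligned medians. Both sit near the upper end of the signal scale. Hbb-b2, measured at 6.76, 7.58 and 7.92 in AP, fell by 0.96 (SE 0.25) and Eraf, the alpha globin chaperone now called Ahsp, fell by 0.59 (SE 0.16) from 14.40, 14.58 and 14.84 in AP, also near the upper end.

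The promoters of Rhag and Ermap are shown as examples from the erythroid lists. Their upstream windows touch no other annotated gene and hold both a GATA site and a CACCC box. GATA factors bind the GATA site in erythroid genes, and Klf1 binds the CACCC box. Other genes of these lists with such windows may have larger changes than Ermap. The RefSeq windows (GRCm38.p6) cover the 250 bases before the transcript start used in RefSeq's promoter table, 5′ to 3′ on the gene's strand, with both motifs in capitals. The search used AGATAA, its variant TGATAA, as well as AGATAG and its variant TGATAG for GATA, and for the CACCC box CCACACC and the shorter CCACCC, on both strands.
Rhag, chr17:40810899-40811148, plus strand: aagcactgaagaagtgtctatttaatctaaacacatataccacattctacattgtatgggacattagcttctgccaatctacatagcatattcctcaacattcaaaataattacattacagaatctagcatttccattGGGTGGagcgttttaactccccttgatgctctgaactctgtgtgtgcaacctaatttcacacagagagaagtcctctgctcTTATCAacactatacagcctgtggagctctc
Ermap, chr4:119189996-119190245, minus strand: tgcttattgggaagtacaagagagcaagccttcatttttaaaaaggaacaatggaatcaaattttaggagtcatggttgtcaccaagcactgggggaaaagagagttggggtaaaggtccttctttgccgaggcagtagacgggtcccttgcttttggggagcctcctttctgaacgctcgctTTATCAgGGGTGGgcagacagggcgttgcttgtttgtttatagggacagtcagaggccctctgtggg
In Rhag the motifs began at positions -112 and -31 relative to that transcript start and in Ermap at -67 and -60. RefSeq's outermost start of the gene lies further upstream, so that the last 50 bases of the Rhag window, with its GATA match, and the last 18 of the Ermap window fall inside the annotated gene. Among 32 erythroid genes with a promoter in the table, 18 held a GATA match and 14 a CACCC match, beside 27.1% and 32.1% of all 27025 promoters.

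Genes of DNA replication and cell division were the second broad group that was lower in old spleens. Of 124 tested genes in the 7 proliferation lists 106 fell and 4 rose, with a median of -0.68, and 22 genes lay below all AP arrays in OP. All 6 MCM helicase subunits fell, with a median of -0.84. Mcm2 read 11.15, 11.33 and 11.65 in AP and 9.58, 10.54 and 11.09 in OP, so that the groups did not overlap, and it fell by 0.84 (SE 0.14, adjusted p = 0.000115, limma). Mcm4 likewise did not overlap, with 12.45, 12.64 and 12.74 in AP and 11.23, 11.995 and 12.32 in OP. The falls of Mcm3, Mcm5, Mcm6 and Mcm7 were 1.01 (SE 0.19), 0.65 (SE 0.13), 0.83 (SE 0.15) and 0.98 (SE 0.21). OP array 7 was the lowest for Mcm2 and Mcm4, and without it their changes were -0.73 and -0.60.

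The promoters of Mcm6 and Mcm5 are shown because they carry the site of E2F, the factor family that turns on replication genes at the G1 to S transition. E2F matches (TTCCCGC or TTGGCGC, both strands) are in capitals in the same 250-base RefSeq windows. A CCAAT box (CCAAT, both strands) read on the other strand can overlap TTGGCGC and is not marked.
Mcm6, chr1:128359706-128359955, minus strand: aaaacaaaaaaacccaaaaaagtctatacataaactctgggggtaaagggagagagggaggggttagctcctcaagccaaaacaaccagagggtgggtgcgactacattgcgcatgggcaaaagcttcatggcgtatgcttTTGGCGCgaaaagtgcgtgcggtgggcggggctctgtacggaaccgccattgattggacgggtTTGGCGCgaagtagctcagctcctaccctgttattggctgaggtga
Mcm5, chr8:75109259-75109508, plus strand: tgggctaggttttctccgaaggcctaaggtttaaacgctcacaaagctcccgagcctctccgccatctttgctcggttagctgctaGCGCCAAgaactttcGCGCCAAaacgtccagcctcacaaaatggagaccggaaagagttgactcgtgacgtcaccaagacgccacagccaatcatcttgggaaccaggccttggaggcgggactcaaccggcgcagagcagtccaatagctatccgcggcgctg
The matches began at -109 and -46 in Mcm6 and at -164 and -149 in Mcm5, counted from the same table's start. The last 41 bases of the Mcm5 window lie past the gene's outermost start. E2F sites were found in 3 of the 5 MCM promoters in the table and in 5.71% of all promoters, and CCAAT boxes in 5 of 5 beside 34.5% of all promoters.

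Every one of 15 origin licensing and firing genes fell. Gins2, a subunit of the GINS complex of the replicative helicase, fell by 1.24 (SE 0.24) and Cdc45l, its partner Cdc45, by 1.12 (SE 0.15). Orc6l, a subunit of the origin recognition complex, read 10.77, 11.20 and 11.70 in AP and 9.35, 10.24 and 10.74 in OP without overlap. Among polymerases, clamp and loader 14 of 17 fell. Rfc4, a clamp loader subunit, fell by 1.04 (SE 0.14) without overlap of the groups and Pcna, the sliding clamp, by 0.72 (SE 0.14). Of 14 genes of nucleotide supply 13 fell and 6 did not overlap. Rrm1, the large subunit of ribonucleotide reductase, read 11.19, 11.60 and 12.11 in AP and 9.11, 10.64 and 10.98 in OP without overlap, with a fall of 1.16 (SE 0.18, adjusted p = 6.62e-05, limma). Tyms, thymidylate synthase, fell by 1.23 (SE 0.25).

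Of 21 cyclins, kinases and E2F genes 17 fell and 2 rose. Ccne2, a cyclin of S phase entry, read 7.39, 8.25 and 9.34 in AP and 5.02, 6.62 and 7.92 in OP and fell by 1.75 (SE 0.28, adjusted p = 8.78e-05, limma). Ccnb1, the mitotic cyclin, fell by 1.39 (SE 0.26) and Cdc2a, its kinase Cdk1, by 1.16 (SE 0.24), while Cdk2 fell by only 0.33 (SE 0.081). The 2 that rose, named after their values were seen, were D cyclins of the G1 phase. Ccnd1 read 7.91, 9.21 and 9.76 in AP and 8.91, 10.14 and 10.67 in OP and rose by 0.98 (SE 0.21, adjusted p = 0.000759, limma). Ccnd2 rose by 0.71 (SE 0.28, adjusted p = 0.0459, limma), but it lost the call with aligned medians and without the 4 arrays above. Of 24 mitosis genes 23 fell, among them Top2a, the topoisomerase that untangles chromosomes, by 1.17 (SE 0.22) and Kif4, a chromosome motor, by 1.04 (SE 0.22). Spc24, a kinetochore protein and the 1 that rose (0.31, SE 0.12), turned to -0.33 when both of its probes were averaged.

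DNA repair genes fell in 18 of 27 cases, with a median of -0.42. The largest falls of the list were those of Rad51ap1 and Blm, of homologous recombination, with Rad51ap1 at -1.23 (SE 0.24) and Blm at -1.05 (SE 0.19). Ercc1, an excision repair nuclease subunit named after its values were seen, was the 1 that rose, by 0.33 (SE 0.071), and it lost the call with aligned medians. The p53 targets and senescence genes had no common direction, with 4 up, 3 down and 13 not called. Over all genes 21.6% were called higher and 23.1% lower. Fas, the death receptor, rose by 1.02 (SE 0.16, adjusted p = 6.14e-05, limma) and Trp53inp1 by 0.76 (SE 0.11), which was not called with aligned medians. Cdkn2c, a kinase inhibitor, fell by 0.95 (SE 0.20). Cdkn1a, which encodes p21, read 6.29, 6.75 and 7.15 in AP and 6.48, 6.69 and 7.18 in OP and Mdm2 read 9.61, 9.79 and 10.14 and 9.63, 9.93 and 10.16, and neither was called. Their changes were 0.032 (SE 0.10) and 0.066 (SE 0.082).

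Amino acid synthesis and other targets of ATF4, the factor of the amino acid and stress response, fell in 12 of 23 cases and rose in 3. Trib3, a pseudokinase induced by this response, read 7.31, 8.43 and 11.14 in AP and 5.73, 6.37 and 8.21 in OP and fell by 1.88 (SE 0.41, adjusted p = 0.00102, limma), or by 1.59 without AP array 8. Asns, asparagine synthetase, fell by 1.25 (SE 0.24), Chac1, which degrades glutathione, by 1.25 (SE 0.31) and Psat1, of serine synthesis, by 0.77 (SE 0.10) with no overlap of the groups. The 3 that rose, named after their values were seen, were Slc7a11, Nupr1 and Stc2, by 0.56, 0.48 and 0.21, and with aligned medians 0 of the list were called higher and 12 lower. Ruvbl2, an ATPase of chromatin and repair complexes, fell by 0.62 (SE 0.12).

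**Figure D2:**
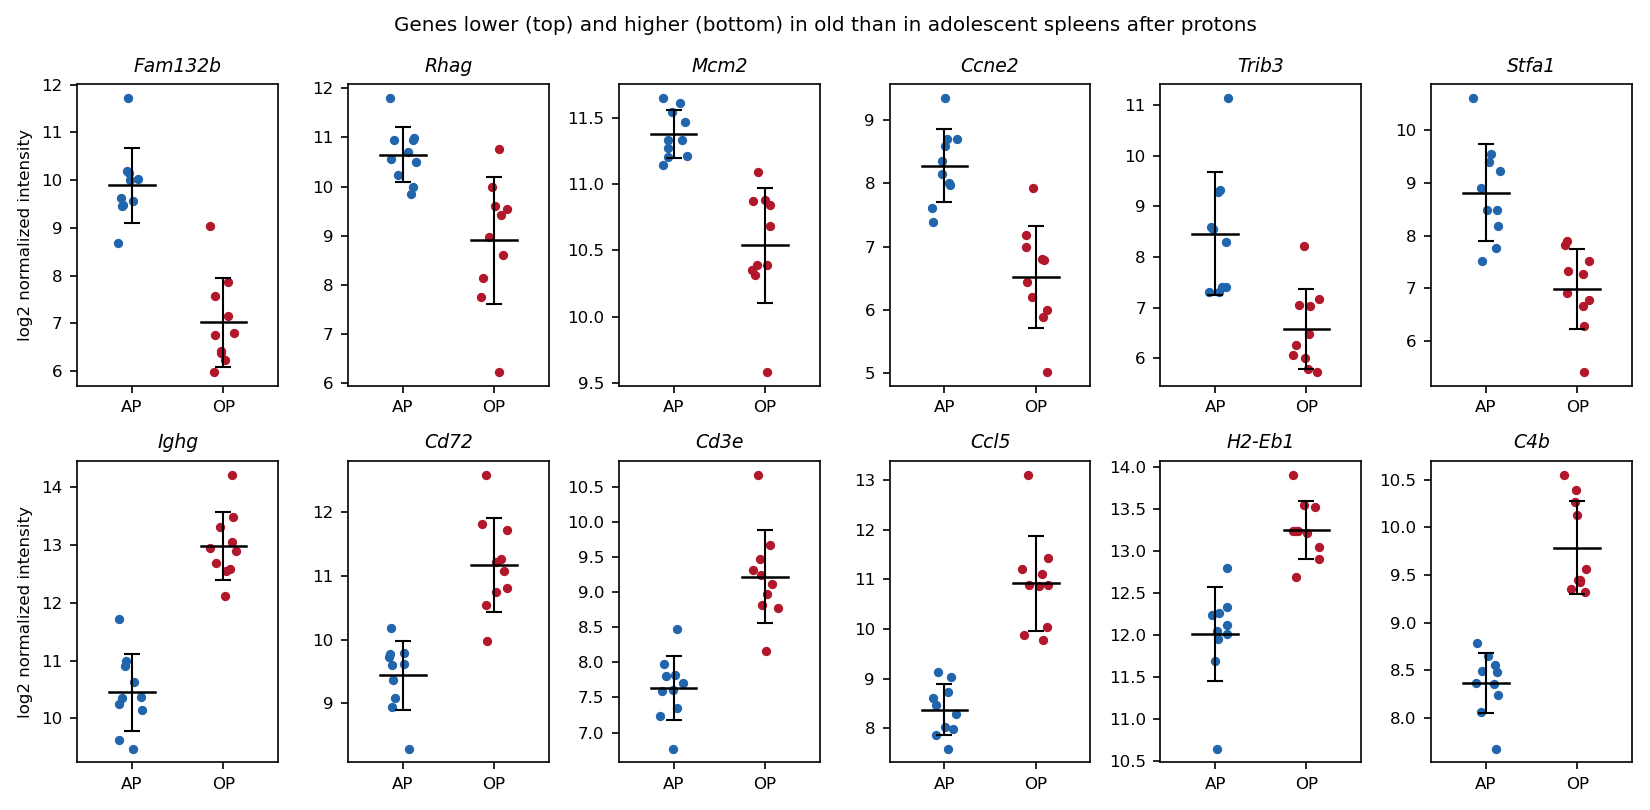
Log2 normalized intensity of 12 genes in the 10 AP (blue) and 10 OP (red) arrays, with 1 point per array and the mean and SD in black. The upper genes were lower and the lower genes higher in OP. For Mcm2, Ighg, Ccl5 and C4b no point of one group reaches into the other.

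Genes of B lymphocytes and their immunoglobulins were higher in the old spleens. Of 21 B cell genes 16 rose and none fell, with a median of 0.80. Cd72, a B cell coreceptor, read 8.29, 9.61 and 10.18 in AP and 9.97, 11.15 and 12.58 in OP and rose by 1.73 (SE 0.26, adjusted p = 5.11e-05, limma). Cd22, an inhibitory B cell lectin, rose by 1.52 (SE 0.28). Ms4a1, which encodes CD20, was not called at 0.43 (SE 0.19), but was called without the 4 arrays above (0.53). With array medians aligned, 4 of the 21 B cell genes were called, all higher. Summed over the list, the B cell signal was 6128 to 19798 in AP and 6964 to 47569 in OP.

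The age-associated B cell list, named for B cells that accumulate in aged mice and express the factor T-bet, rose in 8 of 9 cases, and 2 genes lay above all AP arrays. Zbtb32, a transcriptional repressor, read 5.51, 5.76 and 6.07 in AP and 5.93, 7.48 and 8.42 in OP and rose by 1.58 (SE 0.21, adjusted p = 1.69e-05, limma). Cxcr3, a chemokine receptor that T cells also carry, rose by 1.28 (SE 0.23) without overlap, with its highest value in OP array 8, and by 1.06 without that array. Nt5e, the ectonucleotidase CD73, rose by 1.22 (SE 0.20), Apoe, apolipoprotein E, by 1.06 (SE 0.12) without overlap and Tbx21, which encodes T-bet, by 0.99 (SE 0.21).

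Immunoglobulin variable segments, which each B cell clone joins into its own antibody gene, rose in 33 of 46 cases by the array's names and fell in none. Their median change was 0.94, with 19 of 24 heavy chain and 13 of 21 kappa segments called. The OP arrays scattered more than the AP arrays, with a median SD of 0.81 against 0.37, and the SD was larger in OP for 91.3% of the segments beside 72.5% of all genes. Of 26 further immunoglobulin segments and constant regions named through their gene identifier in RefSeq 13 rose and 1 fell. That one was LOC243461 (Igkv7-33), named after its values were seen, at -1.16 (SE 0.12). Ighg, the IgG heavy chain constant region, read 9.48, 10.37 and 11.72 in AP and 12.11, 12.91 and 14.21 in OP without overlap and rose by 2.53 (SE 0.25, adjusted p = 2.35e-06, limma), or 5.78-fold. LOC636752, the kappa segment Igkv4-62, read 7.55, 8.93 and 10.41 in AP and 9.14, 11.82 and 14.00 in OP and rose by 2.67 (SE 0.55). Igk-V5, chosen after its values were seen, was the 1 variable segment with no overlap, at 10.44, 11.37 and 11.86 in AP and 12.12, 12.38 and 14.39 in OP. Igh-6, the IgM constant region, also chosen after, rose by 0.65 (SE 0.12), and Igk-C, the kappa constant region, was not called at 0.12 (SE 0.094). Both reached 14.91 in OP, the top of the scale. Segments of a family are similar in sequence, so a probe may read more than its own segment.

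Plasma cell and secretion genes pointed the same way, with 10 of 16 risen and none fallen. 2010001M09Rik, the plasma cell chaperone Mzb1, read 9.69, 10.44 and 11.13 in AP and 10.68, 11.90 and 12.70 in OP and rose by 1.40 (SE 0.21, adjusted p = 3.93e-05, limma). Irf4, a factor of plasma cell fate, rose by 1.21 (SE 0.19) and Derl3, of the protein export machinery, by 1.02 (SE 0.16). With aligned medians 6 of the 16 were called, all higher.

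T cell genes were higher too. Of 18 genes of the T cell receptor complex and its signaling 16 rose, with a median of 1.10, and 14 did so with aligned medians. The 4 T cell receptor segments named through their gene identifier in RefSeq did not share this, with 1 risen, 1 fallen and a median of -0.0003. Zap70, the kinase that carries the receptor signal, read 6.23, 6.91 and 7.56 in AP and 7.19, 8.34 and 9.94 in OP and rose by 1.641 (SE 0.24, adjusted p = 3.89e-05, limma). Cd3e, an invariant chain of the receptor, read 6.77, 7.66 and 8.47 in AP and 8.16, 9.18 and 10.67 in OP and rose by 1.59 (SE 0.23). Cd8b1, the CD8 beta chain, rose by 1.48 (SE 0.32) and by 1.23 without OP array 8, its highest array. The list's signal was 2220 to 5757 in AP and 4196 to 28375 in OP, and without OP array 8 again 16 genes rose, with a median of 0.95. Of 9 naive T cell genes 5 rose, among them Il7r, the interleukin 7 receptor, by 1.32 (SE 0.26) and Klf2, a factor of quiescence and migration, by 0.85 (SE 0.19). With aligned medians 1 of the naive genes was called, and Klf2 was not.

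Effector and memory T cell genes rose in 11 of 14 cases, and 4 lay above all AP arrays. Ccl5, a chemokine of effector T and NK cells, read 7.59, 8.38 and 9.14 in AP and 9.78, 10.89 and 13.11 in OP without overlap and rose by 2.54 (SE 0.31, adjusted p = 7.93e-06, limma), or 5.84-fold. Its highest value was in OP array 8, without which the change was 2.30. Prf1, the pore-forming protein of cytotoxic cells, read 7.68, 7.93 and 8.31 in AP and 8.70, 9.07 and 10.44 in OP without overlap and rose by 1.24 (SE 0.17). Gzmk, a granzyme, rose by 1.03 (SE 0.16), Eomes, a factor of effector and memory cells, by 0.86 (SE 0.21) without overlap and Nkg7, a granule protein, by 1.07 (SE 0.24). With aligned medians 7 of the 14 were called and Nkg7 was not. Of 7 NK cell genes 4 rose, with Klrd1, the CD94 receptor chain, at 0.95 (SE 0.23), while Klrb1c, the NK1.1 antigen, was not called at 0.15 (SE 0.18). With aligned medians 2 of the 7 were called higher.

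The checkpoint list, which holds receptors and ligands that restrain T cells and also Tox, rose in 8 of 9 cases. Tox, a factor of exhausted T cells, rose by 1.17 (SE 0.15, adjusted p = 1.5e-05, limma), Cd274, which encodes PD-L1, by 1.08 (SE 0.15), Ctla4 by 0.92 (SE 0.17) and Lag3 by 0.91 (SE 0.18). Of 8 regulatory T cell genes 7 rose. Capg, an actin-capping protein also found in macrophages, read 7.61, 8.79 and 9.05 in AP and 9.64, 9.89 and 10.82 in OP without overlap. Foxp3, the factor that defines these cells, was not called at -0.17 (SE 0.074, adjusted p = 0.0595, limma), and its 4 detected probes disagreed, 3 being higher in OP. The mean of the probes rose by 0.26 (adjusted p = 0.00523, limma), whereas the probe shown fell with aligned medians (-0.52, adjusted p = 0.00828, limma). Tgfb1, a cytokine that limits immune responses, rose by 0.43 (SE 0.12) and by 0.05 with aligned medians, where it was not called. The paper's real-time PCR of the spleens gave the other direction for Tgfb1, with lower mRNA in OP than in AP. Of 11 genes that the study followed as key genes or stained markers, a list chosen on these samples and so no independent evidence, 5 rose (among them Cd3e, Cd74, Ly6a and Tgfb1) and 4 fell (Asns, Mcm7, Ruvbl2 and Cdk2). Ly6a, the activation antigen Sca-1, rose by 1.10 (SE 0.18).

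**Figure D3:**
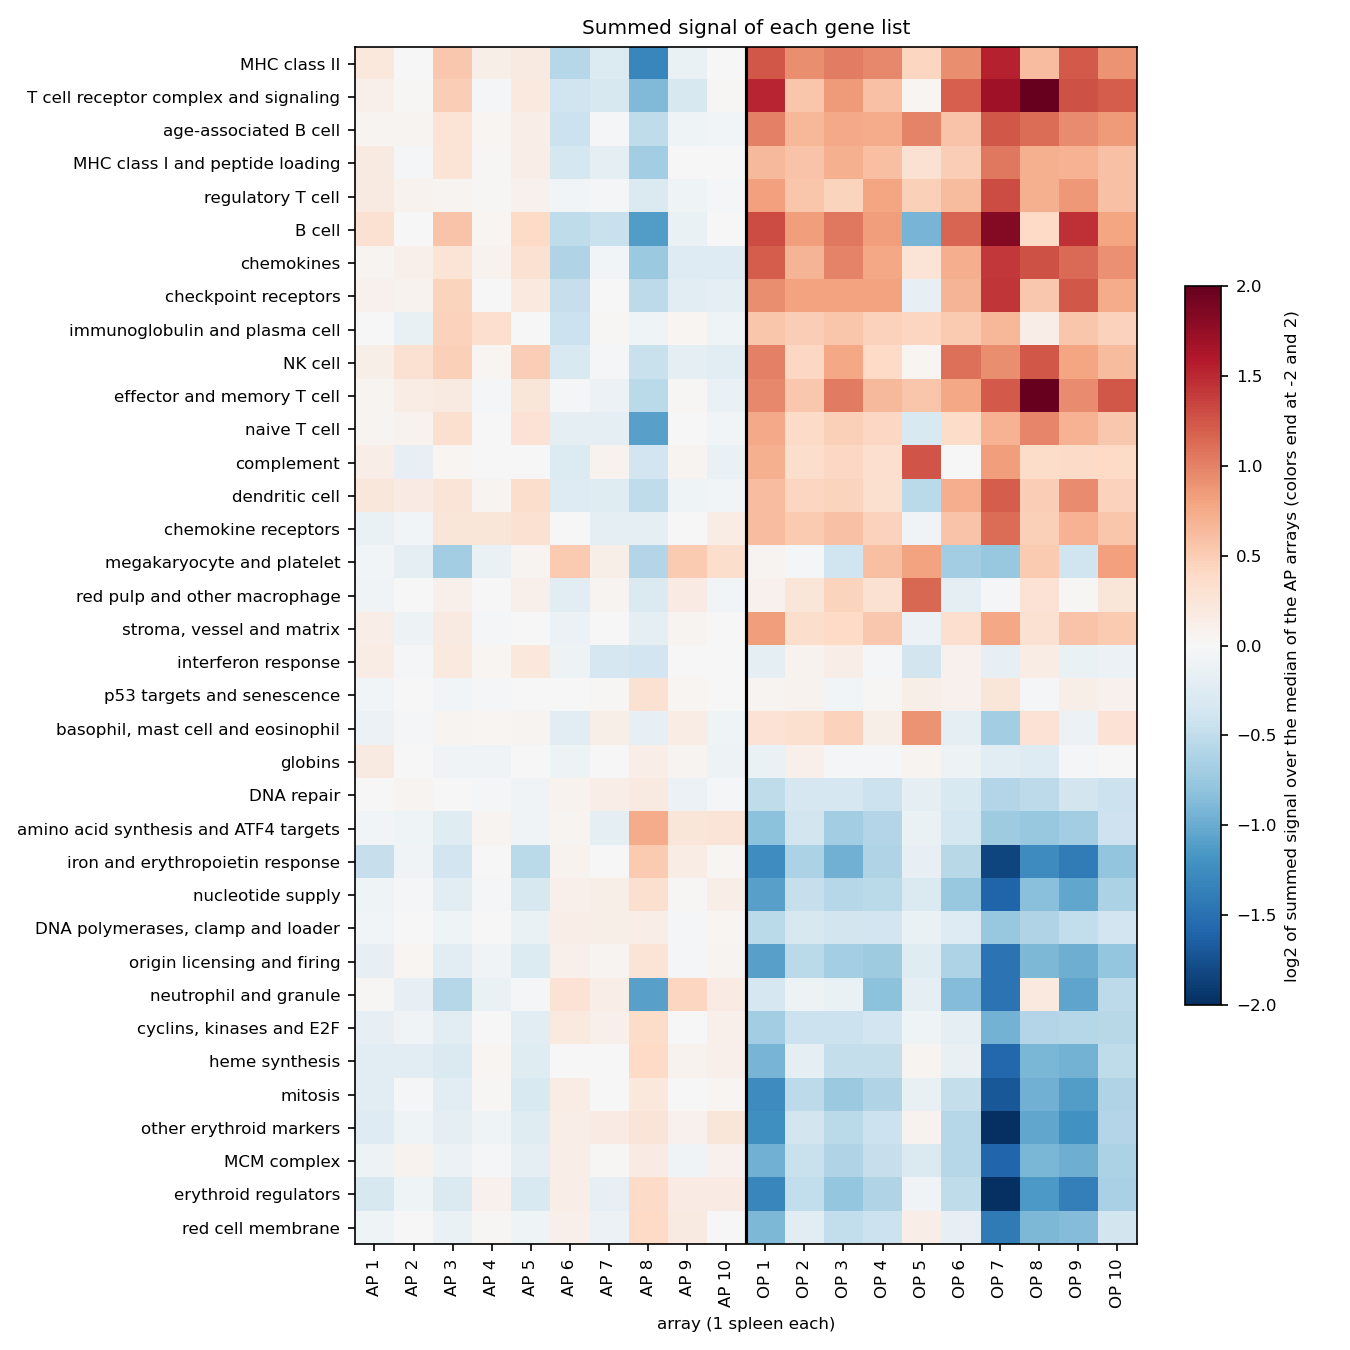
Summed signal of each gene list in every AP and OP array, as log2 of its ratio to the median of the AP arrays. OP array 7 is the bluest in the erythroid and proliferation lists, OP array 5 is close to AP in these lists and high for macrophage genes, and OP array 8 is the highest for T cell receptor genes (28375 signal units).

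Some arrays were at the extreme of several lists. The red cell membrane signal was lowest in OP array 7 (22746), where the B cell (47569) and MHC class II (78609) signals were highest, and it was highest in OP array 5 (66602), where the B cell (6964) and MHC class II (36531) signals were the lowest of OP. In AP the red cell membrane signal was highest in array 8 (79601), which had the lowest B cell (6128) and MHC class II (10950) signals. The part of the cell composition of the spleens in the changes of single genes was not tested.

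All 11 genes of MHC class II antigen presentation rose, with the largest median of all lists, 1.23. These proteins display peptides to CD4 T cells on B cells, dendritic cells and macrophages. H2-Eb1, a beta chain, read 10.65, 12.08 and 12.80 in AP and 12.68, 13.23 and 13.90 in OP and rose by 1.24 (SE 0.19, adjusted p = 6.1e-05, limma). H2-DMb2 and H2-DMa, chains of the peptide exchange factor, rose by 1.62 (SE 0.23) and 1.46 (SE 0.20). H2-Aa, an alpha chain, rose by 1.23 (SE 0.23), Cd74, the invariant chain, by 0.90 (SE 0.15) and Ciita, the transactivator of the whole set, by 1.23 (SE 0.21). With aligned medians 10 of the 11 were called, all higher.

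The promoter of H2-Aa is shown because it holds the core of the X2 box (TGACG), part of the element through which Ciita acts, and a CCAAT box, the Y box of these genes. Both are in capitals in the 250-base RefSeq window, and the X2 core was matched on both strands at overlapping positions.
H2-Aa, chr17:34287824-34288073, minus strand: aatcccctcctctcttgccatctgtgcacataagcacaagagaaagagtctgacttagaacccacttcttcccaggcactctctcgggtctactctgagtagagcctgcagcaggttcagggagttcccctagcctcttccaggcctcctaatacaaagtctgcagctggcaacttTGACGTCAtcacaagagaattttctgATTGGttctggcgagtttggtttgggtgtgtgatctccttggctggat
The X2 matches began at -74 and -71 and the CCAAT match at -48. Of 8 class II genes with a promoter on record 7 held a CCAAT box and 1 held the X2 core as spelled here, beside 34.5% and 17.9% of all promoters.

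MHC class I and peptide loading genes, which display cytosolic peptides to CD8 T cells, rose in 16 of 17 cases with a median of 0.85. H2-Q8, a class I gene of the Q region, read 6.98, 7.76 and 8.37 in AP and 8.33, 9.38 and 10.32 in OP and rose by 1.68 (SE 0.21, adjusted p = 8.37e-06, limma). H2-T23, a nonclassical class I gene, rose by 1.15 (SE 0.12) and Psmb9, an immunoproteasome subunit, by 1.22 (SE 0.20). Class I genes are close copies of each other, so probes of the Q region may share signal. With aligned medians 11 of the 17 were called, all higher.

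Of 18 chemokines 11 rose and none fell. Ccl4, made by T cells and macrophages, rose by 1.58 (SE 0.24), and Ccl19 and Ccl21a, made by the stroma of the T cell zone, rose by 1.48 (SE 0.21) and 1.47 (SE 0.28). Cxcl9, induced by interferon gamma, rose by 1.26 (SE 0.20). Of 12 chemokine receptors 6 rose and 1 fell. Cx3cr1, carried by monocytes and cytotoxic cells, rose by 1.21 (SE 0.15), while the 1 that fell, Ccrl2, had a change of -0.76 (SE 0.16).

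Interferon response genes went in both directions, with 8 of 29 up, 5 down and a median of 0.04. Over all genes 21.6% were called higher and 23.1% lower. Irf1, a factor induced by interferon gamma, read 9.27, 10.47 and 11.003 in AP and 10.78, 11.49 and 11.94 in OP and rose by 1.02 (SE 0.18, adjusted p = 0.00023, limma). Ifngr2, a chain of the interferon gamma receptor, rose by 1.00 (SE 0.15) and Gbp2, a guanylate-binding protein, by 0.81 (SE 0.15). Rsad2, the antiviral protein viperin, read 13.01, 13.20 and 13.29 in AP and 10.62, 12.41 and 13.001 in OP without overlap and fell by 0.86 (SE 0.21, adjusted p = 0.00241, limma). Oas3, an oligoadenylate synthetase, fell by 0.72 (SE 0.15). LOC100038882, which RefSeq names Isg15 by its gene identifier, fell by 1.62 (SE 0.30) and was among the 12 largest decreases. With aligned medians 3 were called higher and 7 lower.

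Complement genes rose in 6 of 15 cases and fell in 2. C4b, a component of the classical pathway, read 7.68, 8.43 and 8.79 in AP and 9.32, 9.504 and 10.55 in OP without overlap and rose by 1.42 (SE 0.17, adjusted p = 6.85e-06, limma). C3, the central component, rose by 0.79 (SE 0.18) and was not called with aligned medians, where 2 of the 15 rose.

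Myeloid genes were less uniform. Of 21 neutrophil and granule genes 10 fell, 11 were not called and none rose. Stfa1, a stefin of neutrophils, read 7.52, 8.69 and 10.60 in AP and 5.41, 7.09 and 7.90 in OP and fell by 1.82 (SE 0.34, adjusted p = 0.000279, limma), and Retnlg, a resistin-like protein of neutrophils, fell by 1.13 (SE 0.34). S100a8 and S100a9, the abundant calgranulins, were not called at -0.23 (SE 0.17) and -0.25 (SE 0.16). Leaving out single arrays gave 5 (without AP array 6 or 9) to 14 (without AP array 8) neutrophil genes called lower, with 6 without OP array 6, 7 or 9, and aligned medians gave 13. Of 19 red pulp and other macrophage genes 4 rose and none fell, beside 21.6% higher and 23.1% lower over all genes. Hmox1, heme oxygenase, which breaks down heme in red pulp macrophages, read 5.60, 6.65 and 8.41 in AP and 7.39, 8.11 and 9.63 in OP and rose by 1.47 (SE 0.33, adjusted p = 0.00133, limma). Lyz2, lysozyme, rose by 0.53 (SE 0.13) and Emr1, the F4/80 antigen, was not called at 0.26 (SE 0.20). With aligned medians 1 of the 19 rose, and it was not Lyz2. Of 10 dendritic cell genes Irf8, a factor of this lineage, rose by 0.77 (SE 0.20), as did Siglech, Dpp4 and Batf3, and Zbtb46 fell by 0.26. With aligned medians 2 of the list were called higher, and the list had no lower call without AP array 6, 7, 8 or 10 or OP array 1. Of 8 basophil, mast cell and eosinophil genes Prg2, an eosinophil granule protein, rose by 1.06 (SE 0.16), while Prss34 and Kit fell by 0.75 and 0.29. These counts stand beside 21.6% called higher and 23.1% lower over all genes. Of 10 megakaryocyte and platelet genes 2 rose, beside 21.6% of all genes. They were Itga2b and Vwf, at 0.66 and 0.54, and neither was called with aligned medians. The count of this list's genes called higher was 1 without AP array 2 or 8 or OP array 1, 4, 5, 8 or 10.

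Of 23 genes of stroma, vessels and matrix 8 rose and 4 fell. Acta2, smooth muscle actin, read 10.25, 10.84 and 11.06 in AP and 10.62, 12.08 and 12.79 in OP and rose by 1.33 (SE 0.19, adjusted p = 3.81e-05, limma), and Dcn, decorin, rose by 1.16 (SE 0.25). Fn1, Col5a1, Sparc and Cdh5, named after their values were seen, fell by 0.54, 0.47, 0.46 and 0.37. The fat list was not called in any of its 4 tested genes, but its summed signal was 2979 in OP array 1 and 3561 in OP array 7, against 167 to 697 in AP. Of the 2 pancreatic genes neither was called.

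Other genes with the largest changes belonged to no list. LOC384415, unmatched in RefSeq, had the largest increase of all and read 8.02, 10.35 and 11.89 in AP and 12.24, 13.31 and 14.41 in OP without overlap. C130026I21Rik read 5.37, 5.79 and 6.23 in AP and 7.45, 8.48 and 10.20 in OP without overlap and rose by 2.72 (SE 0.25, adjusted p = 9.59e-07, limma). LOC100047132, also unmatched, read 6.94, 7.33 and 9.05 in AP and 8.55, 10.62 and 12.37 in OP. A830030H10Rik read 6.16, 6.97 and 7.66 in AP and 4.76, 5.06 and 5.56 in OP without overlap and fell by 1.80 (SE 0.17, adjusted p = 9.59e-07, limma). Bex4, a brain-expressed X-linked gene, fell by 1.63 (SE 0.26).

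The age difference after protons was then set beside the age difference without protons. O and A share no array with OP and AP. Without protons, in the fit of all 38 arrays, 581 of 14975 genes were called (3.88%), 453 higher (3.03%) and 128 lower (0.855%) in O. That fit called 5602 genes for OP against AP. The genes tested had been chosen by detection on the OP and AP arrays alone. Of the 6703 genes called after protons 5559 had the same sign in O minus A. Over the 6703 the median absolute change was 0.46 in OP minus AP and 0.18 in O minus A. These genes were picked by their OP minus AP, which favors larger changes there, so the medians do not compare the age effects. Across genes the changes had a correlation of 0.67, which is a description over genes that are not independent. Among the 18 A and O arrays 14 were dimmer (20569 to 25703) than any OP or AP array, so the comparison was repeated by brightness. With brightness as a batch term 537 genes were higher and 182 lower in O. That term changed only the spread and not the changes themselves, since A and O hold equal numbers of dim arrays. The 7 dim A and 7 dim O arrays gave 232 and 44. The 2 bright arrays of each group gave 0 by limma after adjustment and 547 at an unadjusted p under 0.05. The correlation across genes with OP minus AP was 0.63 in the dim and 0.57 in the bright arrays. A and O hold 7 dim arrays each and OP and AP hold none, and the part of brightness in the lower count of O against A was not tested.

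**Figure D4:**
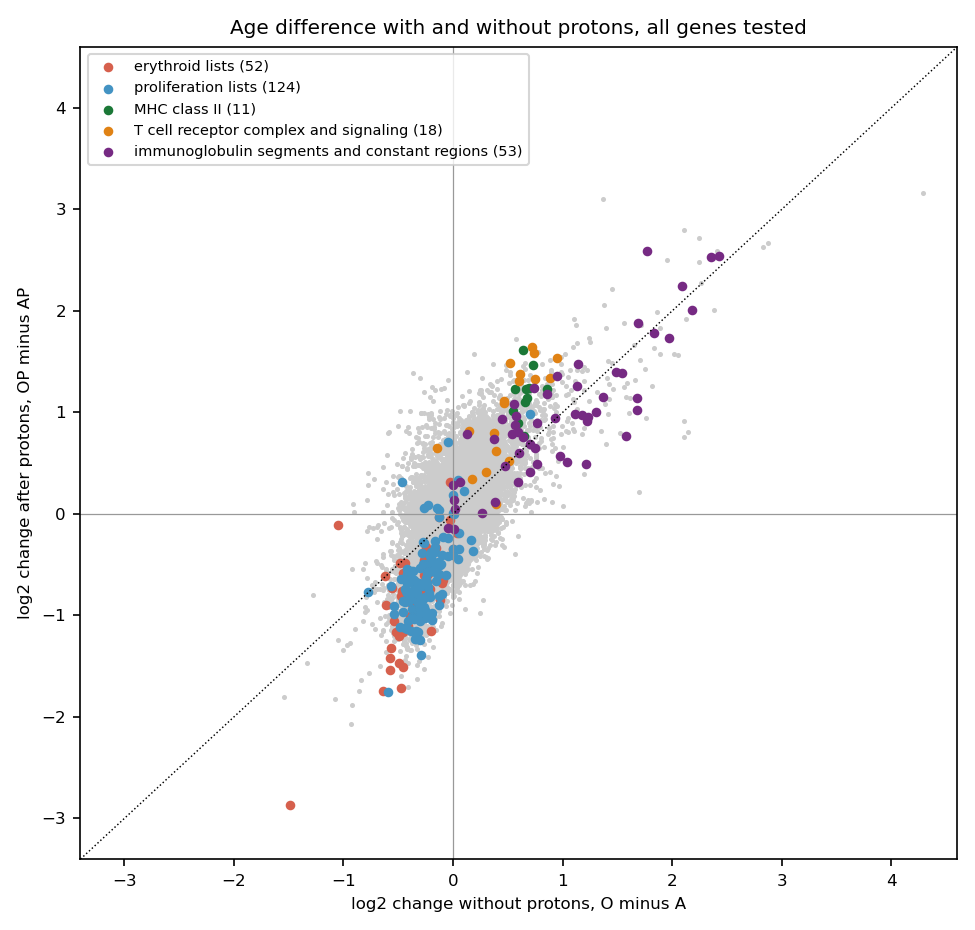
Log2 age difference after protons (vertical) against the one without protons (horizontal) for 14975 genes, with the number of genes of each colored class in the legend and the line of equality dotted. Immunoglobulin genes lie along the line, and most erythroid and proliferation genes lie below 0 on both axes, nearer to 0 without protons.

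The same classes were then read without protons. Erythroid genes had a median of -0.38 in O minus A, with 2 called lower, and proliferation genes one of -0.27, with 7 called lower, while none of either class was called for the difference between the age effects. The immunoglobulin variable segments had a median of 0.90 without protons and 0.94 with them, and the T cell receptor genes one of 0.49 and 1.10. Ccl5 and Ighg rose without protons by 2.34 and 2.36, and Fam132b fell by 1.49.

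A direct test of the difference between the age effects, (OP minus AP) minus (O minus A), called 102 of 14975 genes (0.681%), 77 positive (0.514%) and 25 negative (0.167%). BC030476, Zmiz1 (a coactivator of transcription), Chka (choline kinase), Plp2 (a membrane protein), Tia1 (an RNA-binding protein of stress granules) and Zxda were the 6 largest positive ones. BC030476 rose by 1.39 after protons and had -0.37 without, an interaction of 1.76 (SE 0.32, adjusted p = 0.00337, limma). Chka rose by 1.02 after protons and had -0.49 without, an interaction of 1.50 (SE 0.23, adjusted p = 0.000891, limma). Tia1 gave 1.41 (SE 0.22), Plp2 1.45 (SE 0.24), Zmiz1 1.638 (SE 0.38) and Zxda 1.38 (SE 0.26). The 6 largest negative ones were Yod1 and Wapal (a deubiquitinase and the cohesin release factor Wapl), AW011738, Cnot6 (a deadenylase), Mettl4 and LOC385632. Wapal fell by 1.01 after protons and had -0.12 without, an interaction of -0.88 (SE 0.20, adjusted p = 0.0286, limma).

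Among list members, 5 were called for the interaction. Prf1 rose by 1.24 after protons and had -0.11 without, an interaction of 1.34 (SE 0.29, adjusted p = 0.02, limma). Ifngr2 and Ccl9, a chemokine, gave 1.29 (SE 0.21) and 1.26 (SE 0.29), Vldlr, a lipoprotein receptor, 0.54 (SE 0.14) and Fcer1a, an IgE receptor chain, -0.70 (SE 0.18). These calls rest on arrays of unequal brightness. With bright and dim arrays as a batch term 250 genes were called, including all 102. A and O hold equal numbers of dim arrays, so this term leaves every interaction as it was and changes only its spread. Keeping the 102 is therefore no check on brightness. The 24 bright arrays alone, with only 2 A and 2 O, gave 0 calls by limma and 1086 genes at an unadjusted p under 0.05. There the named genes kept their sign but not their call, as BC030476 did (2.00, adjusted p = 0.33, limma). Dim arrays alone hold no OP or AP array and give no interaction. With aligned medians, where the median interaction of all genes moved from -0.01 to -0.27, the calls were 3 positive and 48 negative, of which 11 were among the 102, and of the 17 named genes BC030476, Cnot6 and LOC385632 were still called. Without OP array 5 the number called was 606, and without A array 1 it was 38.

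**Figure D5:**
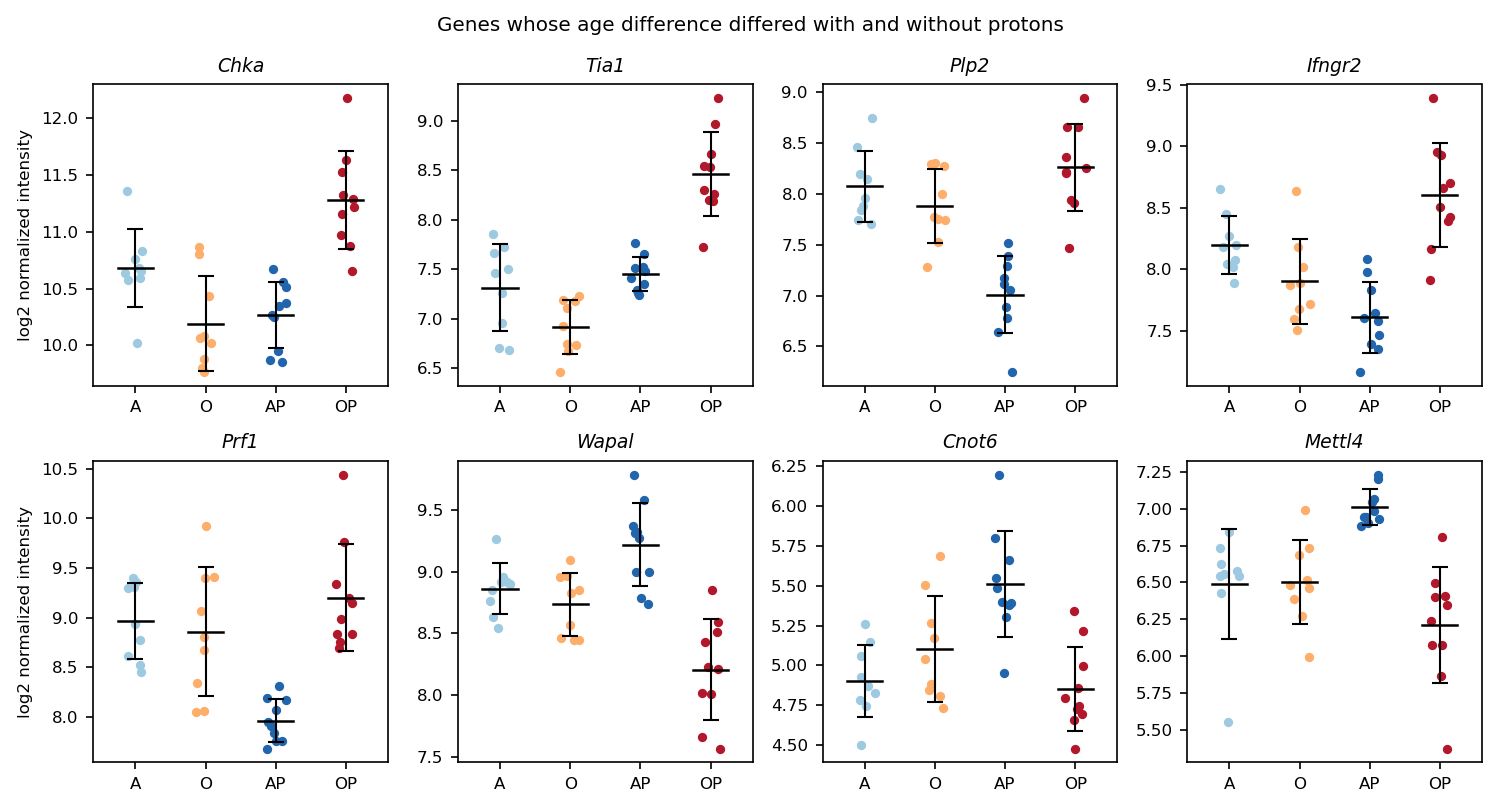
Log2 normalized intensity of 8 genes called for the interaction in all 4 groups (A and O without protons, AP and OP with protons), with 1 point per array and the mean and SD in black. For Chka, Tia1, Plp2, Ifngr2 and Prf1 the OP mean lies above the AP mean while the O mean lies below the A mean.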

How the data were processed

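Whole spleens were profiled on Illumina Mouse WG-6 bead arrays, 1 array per sample. The authors deposited the intensity of each probe, neither background-subtracted nor normalized, and their later batch adjustment, quantile normalization and collapse of probes are not in these values. Detection p-values were not used here, and 0 columns were left unmapped. The 38 arrays were corrected by normexp (offset 16), brought to common quantiles and log2 transformed with limma 3.58.1 in R 4.3.3. A probe counted as detected above the background peak plus 1.645 background SD, and genes with a detected probe on at least 10 of the 20 arrays were tested, each by 1 probe. OP and AP were compared in a fit of these 20 arrays, and the interaction in a fit of all 38, with moderated statistics and Benjamini-Hochberg adjustment at 0.05. Levels of different genes are not comparable, since probes differ.

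The columns match groups but not single labelled replicates, so arrays are numbered in table order. Nothing ties p-values to more than the spread between these samples. Members and lists were chosen with earlier results of these data known. Named genes are the 12 largest increases and decreases, up to 6 called and 3 uncalled members of each list, the study's genes and the 6 largest interactions in each direction, shown in part. Other genes named were chosen after their values were seen. Some genes that this rule names are not reported here. Names were updated and promoters taken from RefSeq tables (GRCm38.p6). The test was checked on simulated data. Alternatives covered normalization, background, filters, probes, weights, covariates, the methods' t-test and single arrays. Figures were drawn with matplotlib 3.10.9.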

Additional observations from a re-analysis of the deposited data

Results flagged for a closer look

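In 54 of 370 groups of 10 values examined, the highest or lowest array lay far from the others of its group by Dixon's criterion, which chance meets in about 1 of 20 groups. Of these 29 were in OP and 25 in AP. The groups share arrays, and the list sums share genes with the single genes, so they are not independent. AP array 8 alone gave 21 of the 54, and the excess over that rate was not tested. AP array 8 lay above its group, in log2 units, for Fam132b (11.71), Plek2 (10.62), Tyms (11.66), Ccnb1 (10.81), Cdkn2c (10.33), Trib3 (11.14) and LOC385632 (7.21). The summed list signal of AP array 8 lay above the rest of its group for the genes of amino acid synthesis and ATF4 targets (23777), heme synthesis (52044) and p53 targets and senescence (7874). AP array 8 lay below its group, in log2 units, for Cd22 (6.93), Nkg7 (8.38), Capg (7.61), Klrb1c (4.30), Lyz2 (11.80), Retnlg (9.81), S100a9 (12.38), H2-Eb1 (10.65), Irf1 (9.27) and C3 (10.13). The summed list signal of AP array 8 lay below the rest of its group for the genes of naive T cell (2644). OP array 5 lay above its group, in log2 units, for Emr1 (9.27). The summed list signal of OP array 5 lay above the rest of its group for the genes of red pulp and other macrophage (60875). OP array 5 lay below its group, in log2 units, for Ccnd1 (8.91), Ms4a1 (5.73), Klf2 (9.501), Ciita (8.43), Psmb9 (9.74), Ccl19 (9.26), Ccl21a (9.67) and Acta2 (10.62). OP array 8 lay above its group, in log2 units, for Cxcr3 (9.41), Cd8b1 (12.86), Il7r (10.33), Ccl5 (13.11), Nkg7 (12.37) and Eomes (7.85). The summed list signal of OP array 8 lay above the rest of its group for the genes of T cell receptor complex and signaling (28375) and effector and memory T cell (18878). OP array 8 lay below its group, in log2 units, for Igk-C (14.09). The summed list signal of OP array 8 lay below the rest of its group for the genes of immunoglobulin and plasma cell (61694). The summed list signal of OP array 7 lay above the rest of its group for the genes of MHC class I and peptide loading (49401) and regulatory T cell (3806). The background peak of OP array 7 was 139.1 signal units, above its group. OP array 7 lay below its group, in log2 units, for Mcm2 (9.58), Mcm4 (11.23), Rrm1 (9.11), Ruvbl2 (7.83) and Rsad2 (10.62). AP array 10 lay above its group, in log2 units, for Oas3 (7.43). The share of probes detected in AP array 10 was 56.5%, above its group. AP array 7 lay above its group, in log2 units, for Gzmk (5.72). AP array 9 lay above its group, in log2 units, for LOC100047132 (9.05). OP array 4 lay above its group, in log2 units, for Tgfb1 (10.41).

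The age difference itself differed between irradiated and unirradiated hosts for 17 named genes, by limma's interaction term with Benjamini-Hochberg adjustment over 14975 genes, in the log2 units of (OP minus AP) minus (O minus A). It was positive for Prf1 (1.34), Ifngr2 (1.29), BC030476 (1.76), Zmiz1 (1.638), Chka (1.50), Plp2 (1.45), Tia1 (1.41), Zxda (1.38), Ccl9 (1.26) and Vldlr (0.54). It was negative for Yod1 (-1.16), AW011738 (-0.96), Wapal (-0.88), Cnot6 (-0.86), Mettl4 (-0.82), LOC385632 (-0.80) and Fcer1a (-0.70). In the 24 bright arrays alone, with 2 A and 2 O arrays, none of these was called.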

How the results depend on the processing

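The OP against AP comparison called 6703 genes, and 5602 to 7002 under the other normalizations, filters, probe rules, fits and covariates, with 6582 by the methods' t-test after Benjamini-Hochberg adjustment and 7742 before it. A minimum of 2-fold left 510 by construction. Leaving out single arrays gave 6137 (without AP array 8) to 7144 (without OP array 5). Among the 143 genes followed singly, OP minus AP turned sign only for genes near 0 or with probes that disagree. Sign changes of the other genes were not checked. Cdkn1a (0.032) became -0.15 with aligned medians, -0.073 with the mean of its probes and -0.0090 without OP arrays 5 and 8, a setting chosen after seeing the data, and ranged from -0.016 (without OP array 5) to 0.082 (without AP array 8) over single arrays left out. Mdm2 (0.066) became -0.33 with aligned medians and -0.0063 with array weights. Foxp3 became 0.26 and Spc24 -0.33 with the mean of their probes. The cause was not tested.

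The interaction count of 102 became 250 with a batch term for brightness, which left the interactions themselves unchanged. It became 0 in the 24 bright arrays, 52 without the OP array of highest background, 51 with aligned medians and 58 with no filter. Leaving out single arrays gave 38 (without A array 1) to 606 (without OP array 5), and the count also moved by over 1.5 times without A arrays 2, 4 and 8, AP arrays 2, 3, 4, 8, 9 and 10, O arrays 3 and 9, and OP arrays 1, 6, 7 and 8. No paired analysis was possible because the column headers carry other numbers than the labels' replicates, so the planned replicate block was not run. The number of arrays limits the precision, and a probe close to background holds little information on a decrease.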
